A study of Mus musculus with 24 samples.

Results

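Hepatic stellate cells are the vitamin A storing cells of the space between hepatocytes and the sinusoid. In the resting (quiescent) state they esterify retinol and express desmin and reelin, and after injury they turn into matrix-producing myofibroblasts that lay down fibrillar collagen and proteoglycans under the influence of platelet-derived growth factor and transforming growth factor beta. Genes of both states were followed here in whole mouse liver: Lrat, Des and Reln as quiescent stellate genes, Pdgfrb as the growth factor receptor, Bgn and Dcn as small matrix proteoglycans, Col1a1, Col1a2 and Col3a1 as fibrillar collagens, and Timp1 as an inhibitor of matrix proteases. They were taken by name, as every probe that is not a control spot and whose gene name in the scanner files is one of these 10, which gave 26 probes for 10 of the 15949 genes tested.

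RNA came from liver of C57BL/6J mice, all with a labelled age of 68 weeks, measured on 24 single-colour Agilent arrays. The labels give 4 groups of 6 samples: males and females fed a control diet, and males and females fed the diet with pesticides, for 52 weeks in each case. The agents of the mixture are not named in the sources used here, and the labels give no mouse numbers, so p-values measure the spread between samples. All values are log2 intensities after quantile normalization, and the fold changes of 1 probe can be compared between groups while the levels of different probes cannot.

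The sex labels did not match the sex-linked transcripts. Xist, the RNA that coats the inactive X chromosome, exceeded background clearly on all 12 arrays with the pesticide label and on 0 of the 12 with the control label, whichever sex was labelled, and the Y-linked genes Eif2s3y, Ddx3y, Kdm5d and Uty showed the reverse on all 24. The log2 intensity of Xist was 8.07 to 8.49 over the labelled pesticide arrays and 4.84 to 5.41 over the labelled control arrays. Labelled diet therefore coincided with the sex-linked transcripts on every array, and diet and sex cannot be told apart in any pesticide against control comparison below. Within a diet label both labelled sexes gave the same sex-linked pattern, so comparisons between the labelled sexes cannot show a difference between the sexes. The number of probes that the scanner software marked as well above background ran from 29935 to 39032 over the arrays and was highest in labelled female pesticide 3. Labelled female control 4 had the lowest median correlation with its own group (0.9856), and several values are also given without one of these arrays. The 24 arrays lay on 3 slides with 2 arrays of each group on each slide.

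For all 10 genes the brightest probe was well above background on 24 of 24 arrays, and this probe represents the gene. Probes for Bgn, Timp1 and Dcn are shown. Biglycan and Timp1 are both X-linked and had unlike values, and decorin alone had labelled male groups that did not overlap at the brightest probe. The positions are those the files give on mm9, on the plus strand: chrX:70738554-70738613 for Bgn, chrX:20451675-20451733 for Timp1 and chr10:96980233-96980292 for Dcn. An exon annotation of that build was not used here.
Bgn probe: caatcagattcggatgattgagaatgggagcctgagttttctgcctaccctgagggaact
Timp1 probe: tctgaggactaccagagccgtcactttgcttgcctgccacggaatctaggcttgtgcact
Dcn probe: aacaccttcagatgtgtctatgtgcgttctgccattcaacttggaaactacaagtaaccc
Col1a1 was read by 2 probes that were printed 10 times each and share 20 bases, at chr11:94813115-94813134 on the plus strand of mm9. They are not independent measurements of the transcript, and the shared stretch, in capitals because it is the whole overlap, is given next.
Col1a1 overlap: TGACCAACTGAACGTGACCA

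The quiescent stellate genes were higher with the pesticide label. Lrat, Des and Reln rose by 0.34 to 0.66 on the log2 scale when both labelled sexes were averaged. Col1a2 and Col3a1 passed in labelled males and in that average, near the threshold in the latter, and Col1a1 and Timp1 did not pass in any comparison. In labelled males 8 of the 10 genes were called higher at an adjusted p under 0.05 (limma with Benjamini-Hochberg adjustment over all 32078 tested probes), against 14.3% of all 15949 genes. The labelled female comparison called 3 of 10 higher, against 10.6% of all genes, and the mean of both called 8 of 10, against 20.4%. The count of genes called lower was 0 of 10 in each of the 3 comparisons, against 11%, 10.2% and 19.1% of all genes. The 10 genes were chosen with earlier results of these data known, so these counts are no test of an excess over all genes. Over probes in place of genes, 22.2%, 18.3% and 36.1% of 32078 passed in either direction. Of the genes called in labelled males 56.6% were higher, and 42.6% when the median signal was scaled to the 75th percentile in place of quantiles. In bulk liver, more cells of a type and more RNA per cell cannot be told apart.

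**Figure D1:**
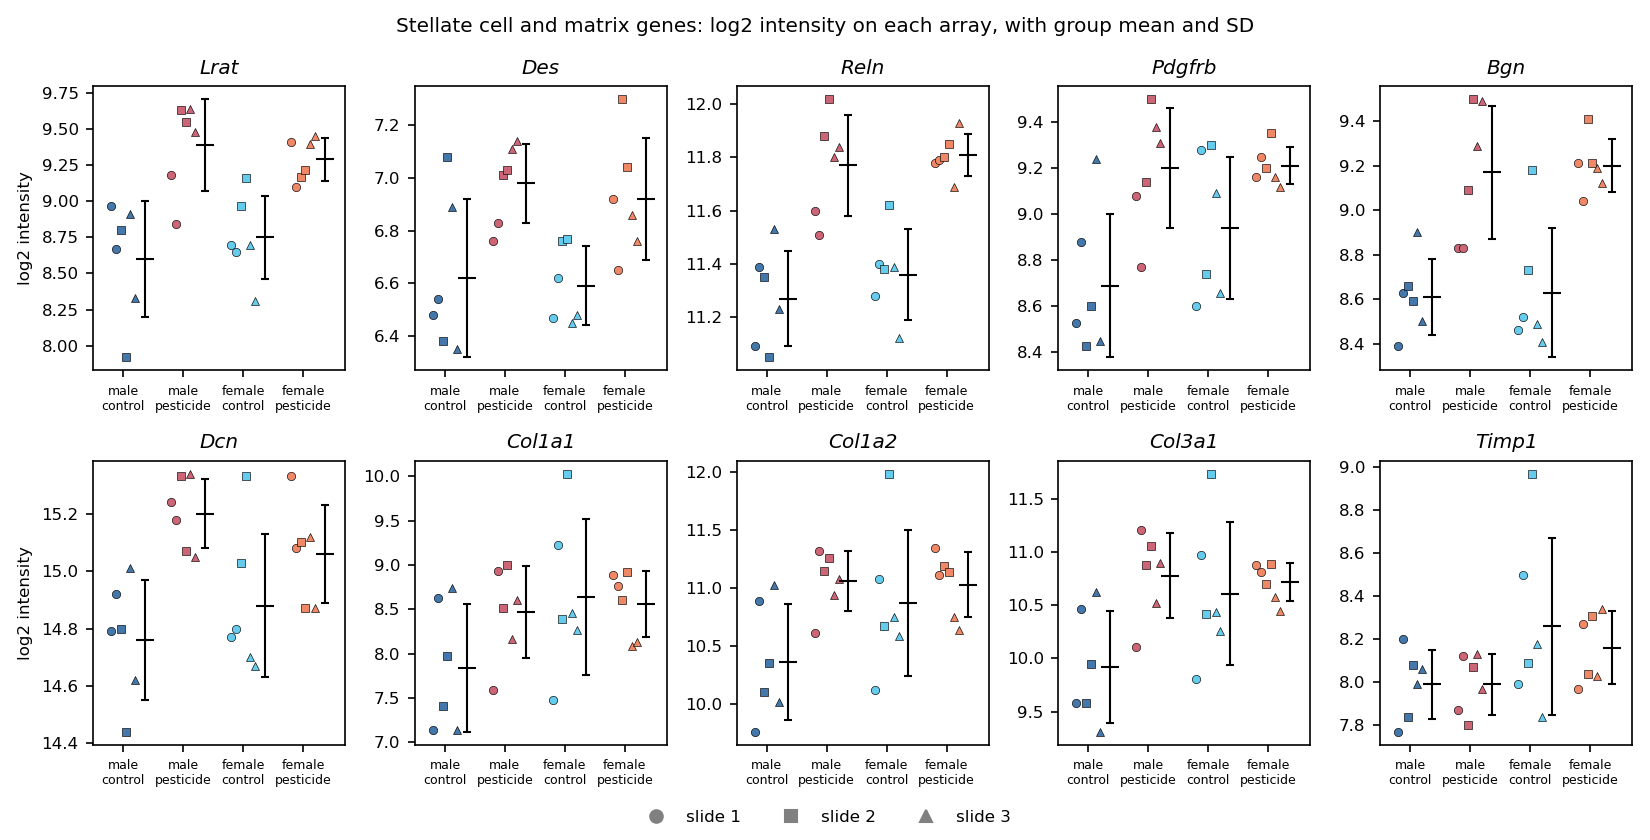
Log2 intensity (y axes, one range per gene) of the brightest probe of each of the 10 genes on 24 arrays in the 4 labelled groups (x axes). Points are arrays, their shapes the slides, and bars the group mean and SD; the Lrat, Reln and Bgn points of the labelled pesticide groups lie mostly above the control points, whereas the collagen points of labelled female control span the widest range, up to 11.74 for Col3a1.

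Lrat, the acyltransferase that makes retinyl esters, was read by a probe at chr3:82696805-82696864 on the minus strand of mm9. In labelled male control its log2 intensity ran from 7.92 over a median of 8.74 to 8.97, and in labelled male pesticide from 8.84 over 9.51 to 9.64. The ranges overlapped through 1 pesticide array, replicate 2. Its mean rose from 8.60 ± 0.40 to 9.39 ± 0.32 (SD, n = 6 each), a 1.72-fold difference (log2 0.79, SE 0.17, adjusted p = 0.0015). In labelled females the values were 8.31 to 9.16 (median 8.70) for control and 9.10 to 9.45 (median 9.31) for pesticide, overlapping through labelled female control 4. That 1.46-fold rise (log2 0.54, SE 0.17, adjusted p = 0.024) did not pass without labelled female control 6 (log2 0.45, adjusted p = 0.068). Within single slides the log2 difference of Lrat was 0.19 to 1.23 in labelled males and 0.13 to 0.92 in labelled females.

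Reln, with its probe at chr5:21390477-21390536 on the minus strand of mm9, encodes reelin, a secreted glycoprotein that stellate cells make in liver. Its log2 intensity was 11.05 to 11.53 (median 11.29) in labelled male control and 11.51 to 12.02 (median 11.82) in labelled male pesticide, with an overlap of 1 array on each side. In labelled females it was 11.12 to 11.62 (median 11.38) and 11.69 to 11.93 (median 11.79), so every pesticide array lay above every control array, as for 4.26% of all genes in that comparison. Reln rose 1.41-fold in labelled males (log2 0.50, SE 0.09, adjusted p = 0.00051) and 1.36-fold in labelled females (log2 0.44, SE 0.09, adjusted p = 0.0019). On the 3 slides taken alone the difference was 0.31 to 0.75 in labelled males and 0.33 to 0.56 in labelled females. The fit passed at adjusted p = 0.0063 or lower in both comparisons whichever of the 24 arrays was left out.

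Des encodes desmin, an intermediate filament protein shared by stellate and muscle cells, and its probe lies at chr1:75363404-75363629 on the plus strand of mm9. The log2 intensity was 6.35 to 7.08 (median 6.51) in labelled male control and 6.76 to 7.14 (median 7.02) in labelled male pesticide, with control arrays 4 and 5 inside the pesticide range. Des was 1.28-fold higher in labelled males (log2 0.36, SE 0.12, adjusted p = 0.035), but this call was lost in 8 of 24 fits that left out 1 array (adjusted p up to 0.087). In labelled females the values were 6.45 to 6.77 and 6.65 to 7.30, and the difference of 0.33 (SE 0.12) did not pass (adjusted p = 0.060); it passed without labelled female control 4 (log2 0.37, adjusted p = 0.044) and with slide as a block (adjusted p = 0.034). Averaged over both labelled sexes Des rose by 0.34 (SE 0.09, adjusted p = 0.0028), and 24 of 24 fits without 1 array kept that call. Of 7 tested smooth muscle genes, which share desmin, 1 was called higher in labelled males and 0 in labelled females, and of 4 tested skeletal muscle genes 0 in either. Of all genes, 14.3% were called higher in labelled males and 10.6% in labelled females. The part of muscle cells in the Des values was not tested.

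Pdgfrb, the receptor through which platelet-derived growth factor drives stellate cell proliferation, had log2 intensities of 8.43 to 9.24 (median 8.57) in labelled male control and 8.77 to 9.50 (median 9.23) in labelled male pesticide. The groups overlapped, with control arrays 2 and 5 among the pesticide values. The 1.42-fold rise passed (log2 0.51, SE 0.14, adjusted p = 0.013). In labelled females the control arrays were spread over 8.60 to 9.30 and the pesticide arrays over 9.12 to 9.35, and the difference of 0.26 (SE 0.14, adjusted p = 0.21) did not pass. The difference was 0.22 to 0.80 within slides in labelled males and 0.25 to 0.27 in labelled females.

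Among the proteoglycans, biglycan (Bgn), which binds collagen fibrils and signals to macrophages once released, was higher by nearly the same amount in both labelled sexes. Its log2 intensity was 8.39 to 8.90 (median 8.61) in labelled male control and 8.83 to 9.50 (median 9.19) in labelled male pesticide, overlapping through control array 5. In labelled females it was 8.41 to 9.18 (median 8.51) and 9.04 to 9.41 (median 9.20), overlapping through labelled female control 4. Bgn rose 1.47-fold (log2 0.56, SE 0.13, adjusted p = 0.0033) and 1.48-fold (log2 0.57, SE 0.13, adjusted p = 0.0036), and the test of a difference between these gave -0.01 (SE 0.18, adjusted p = 1). Bgn is X-linked. In the mean comparison 131 of 474 genes with an X chromosome probe (27.6%) were called higher, against 20.4% of all genes. The part of X linkage in the Bgn values was not tested. Timp1, the other X-linked gene of the 10, did not pass in any comparison.

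Decorin (Dcn), the small proteoglycan that binds type I collagen and transforming growth factor beta, was 14.44 to 15.01 (median 14.79) in labelled male control and 15.05 to 15.34 (median 15.21) in labelled male pesticide. These ranges did not overlap, as for 7.15% of all genes in that comparison. Dcn rose 1.36-fold (log2 0.44, SE 0.11, adjusted p = 0.0058), with differences of 0.36 to 0.58 within slides. In labelled females the values were 14.67 to 15.33 and 14.87 to 15.33, and the difference of 0.18 (SE 0.11, adjusted p = 0.28) did not pass. It was -0.19 on slide 2, which carries labelled female control 4, and 0.31 to 0.42 on the other slides, and it was 0.27 without that array (adjusted p = 0.063). The interaction test, which asks whether the pesticide against control difference is unequal in the labelled sexes, did not pass for Dcn (0.26, SE 0.16, adjusted p = 1).

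The fibrillar collagens had a wide spread between arrays of a group. Col3a1, the type III chain, read at chr1:45405589-45405648 of mm9, was 9.31 to 10.63 (median 9.77) in labelled male control and 10.11 to 11.21 (median 10.89) in labelled male pesticide. In labelled female control it reached from 9.81 to 11.74 (median 10.43), and in labelled female pesticide it kept to 10.45 to 10.89 (median 10.75). The SD over 6 arrays was 0.67 in labelled female control and 0.18 in labelled female pesticide. Col3a1 rose 1.81-fold in labelled males (log2 0.86, SE 0.26, adjusted p = 0.018); in labelled females the difference was 0.11 (SE 0.26, 95% interval -0.42 to 0.64, adjusted p = 0.80). The labelled male call was lost without labelled male control 6 (log2 0.74, adjusted p = 0.050).

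Col1a2, the other chain of type I collagen, read at chr6:4490619-4490678 of mm9, also had its widest range in labelled female control. It was 9.76 to 11.03 (median 10.22) and 10.61 to 11.32 (median 11.12) in labelled male control and pesticide, and 10.12 to 11.99 (median 10.71) and 10.64 to 11.35 (median 11.13) in labelled females. Control arrays 2 and 5 lay within the labelled male pesticide range. The 1.63-fold rise in labelled males (log2 0.70, SE 0.24, adjusted p = 0.037) was lost in 8 of 24 fits without 1 array (adjusted p up to 0.098), and the difference in labelled females was 0.16 (SE 0.24, adjusted p = 0.69). The labelled female difference without labelled female control 4 was 0.39 for Col1a2 (adjusted p = 0.19) and 0.34 for Col3a1 (adjusted p = 0.30). It was 0.01 and -0.05 without labelled female control 1.

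Col1a1, the main chain of type I collagen, did not pass in either labelled sex. It was 7.14 to 8.74 (median 7.69) and 7.59 to 9 (median 8.56) in labelled male control and pesticide, and 7.48 to 10.03 (median 8.42) and 8.09 to 8.92 (median 8.68) in labelled females. The differences were 0.63 (SE 0.35, adjusted p = 0.21) and -0.08 (SE 0.35, 95% interval -0.80 to 0.64, adjusted p = 0.91). The labelled female difference of Col1a1 ran from -0.31 without labelled female control 1 to 0.20 without labelled female control 4 (adjusted p = 0.58 and 0.70). In the mean of both labelled sexes Col1a2 (0.43, SE 0.17, adjusted p = 0.048) and Col3a1 (0.49, SE 0.18, adjusted p = 0.039) passed narrowly. Without 1 array, that call was lost in 17 of 24 fits for Col1a2 and in 14 of 24 for Col3a1. Both kept it without labelled female control 4 (adjusted p = 0.0037 and 0.0039), and without labelled female pesticide 3 it was lost for Col1a2 (adjusted p = 0.070).

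By their brightest probes, the collagens were the only genes of the 10 whose labelled control groups differed at an unadjusted p under 0.05. The dimmer Bgn probe A_55_P2715668 also did in the same limma fit (-0.19, SE 0.09, unadjusted p = 0.043, adjusted p = 0.87). Labelled male control minus labelled female control was -0.80 for Col1a1, -0.51 for Col1a2 and -0.69 for Col3a1 (SE 0.35, 0.24 and 0.26), with unadjusted p = 0.030, 0.044 and 0.014. Leaving out labelled female control 4 made these differences -0.53, -0.28 and -0.46. After adjustment p was 0.83, 0.87 and 0.68 with all arrays, and 0 of 32078 probes passed in that limma comparison (1792 at an unadjusted p under 0.05). The interaction test gave 0.75 for Col3a1 (SE 0.36, unadjusted p = 0.051, adjusted p = 1). No probe passed there either (0 of 32078, with 1265 at an unadjusted p under 0.05). A gene called in labelled males alone is therefore not shown to differ between the labelled sexes, and these tests cannot inform on sex itself. Labelled male pesticide minus labelled female pesticide was -0.10 to 0.06 for the 3 collagens, with 0 of 32078 probes passing and 1311 at an unadjusted p under 0.05.

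**Figure D2:**
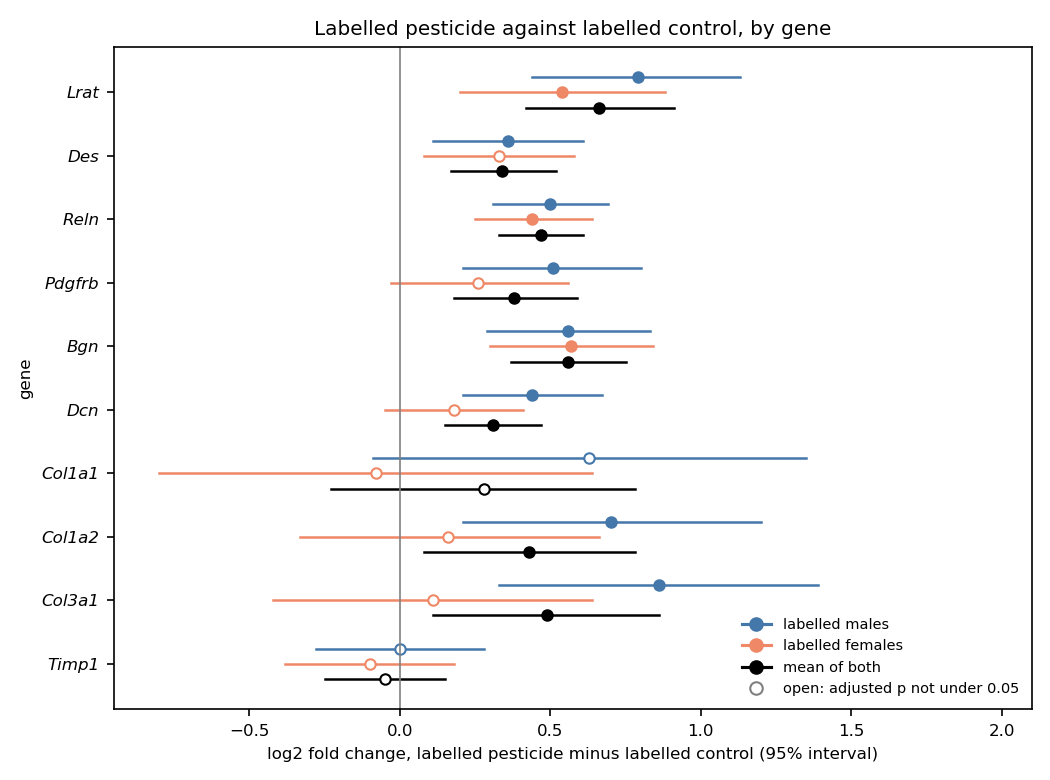
Log2 fold change of labelled pesticide over labelled control (x axis, bars 95% intervals from limma) for each gene (y axis) in labelled males, labelled females and their mean; filled points passed at an adjusted p under 0.05. The intervals of Lrat, Des, Reln and Bgn lie above 0 in all 3 comparisons, with the smallest lower bound at 0.08 for Des in labelled females, while Col1a1 in labelled females spans -0.80 to 0.64.

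Labelled female control 4 held the highest value of its group for all 10 genes, among them Col1a1 (10.03), Lrat (9.16) and Timp1 (8.97), and lay above the group mean by 0.66 on average. Without it the labelled female control mean of Col3a1 was 10.38 ± 0.42 (SD, n = 5) in place of 10.61 ± 0.67. The same array had the highest mean level in its group of Kupffer cell and macrophage markers (11.89, next 10.43) and of lymphocyte markers (8.63, next 7.80), but ranked 4 of 6 for sinusoidal endothelial markers. Leaving it out raised the count of members called higher in labelled females from 3 to 4 and left it at 8 in the mean comparison. The share of all genes called higher then also rose, from 10.6% to 12.6% in labelled females and from 20.4% to 21.1% in the mean. Without labelled female pesticide 3 the member counts were 3 and 7, against 9.49% and 20.4% of all genes.

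Timp1, which inhibits matrix metalloproteases and is a usual marker of activated stellate cells, was 7.77 to 8.20 (median 8.03) in labelled male control and 7.80 to 8.13 (median 8.02) in labelled male pesticide. In labelled females it was 7.84 to 8.97 (median 8.14) and 7.97 to 8.34 (median 8.15). The groups overlapped almost entirely. The difference was 0.00 in labelled males (SE 0.14, 95% interval -0.28 to 0.28, adjusted p = 1) and -0.10 in labelled females (SE 0.14, 95% interval -0.38 to 0.18, adjusted p = 0.64). The latter was 0.04 without labelled female control 4 (adjusted p = 0.85).

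Most other probes of the same genes did not pass. Of the 26 probes 20 were tested and 6 were not, since the latter were well above background on 0 to 4 arrays. A Bgn probe annotated to another transcript (A_55_P2715668, mean log2 intensity 7.07) rose by 0.28 in labelled males (SE 0.09, adjusted p = 0.028) and differed by 0.02 in labelled females (adjusted p = 0.89). Its labelled male ranges did not overlap (6.77 to 6.98 in control, 7.09 to 7.25 in pesticide), as for 7.15% of all genes by their brightest probe. A Reln probe on the same transcript as the brightest one (A_66_P108810, 6.61) passed in the mean comparison at 0.16 (SE 0.06, adjusted p = 0.041). It did not pass in labelled males (0.13) or labelled females (0.19). Reln probe A_55_P2715296 (8.23) differed by 0.26 in labelled males, 0.10 in labelled females and 0.18 in the mean. For A_55_P2715301 (6.23) these differences were -0.03, 0.00 and -0.01. Neither of these probes passed in any of the comparisons, though both were well above background on 24 of 24 arrays. Des probe A_55_P2718707, well above background on 7 of 24 arrays, differed by -0.15 in labelled males and 0.15 in labelled females and passed in neither. The Col1a1 probe that overlaps the brightest one differed by 0.61 and -0.03 in labelled males and females, and a further Col1a1 probe (A_66_P101466) by 0.46 and -0.24, none of which passed. The further Col3a1 probes (A_55_P2717454 and A_55_P2717459) differed by 0.16 and 0.15 in labelled males and did not pass.

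To set resting stellate genes against collagen within each liver, the mean log2 intensity of Col1a1, Col1a2 and Col3a1 was subtracted from that of Lrat, Des and Reln on each array. The level of this difference depends on the probes, so only its change between groups can be read. It was -0.54 ± 0.49 in labelled male control, -0.72 ± 0.42 in labelled male pesticide, -1.14 ± 0.61 in labelled female control and -0.76 ± 0.29 in labelled female pesticide (SD, n = 6 each). The pesticide label went with a shift of -0.18 in labelled males and 0.37 in labelled females. The pooled SD of single arrays was 0.46, and a standard error of these shifts between group means was not computed. Without labelled female control 4, whose own value of -2.07 was the lowest of all, the shift in labelled females was 0.19. Averaged over both labelled sexes the shift was 0.09, and it was -0.20, 0.13 and 0.35 on slides 1, 2 and 3. Behind these values the quiescent mean moved from 8.83 ± 0.17 to 9.38 ± 0.21 in labelled males and from 8.90 ± 0.19 to 9.34 ± 0.09 in labelled females. The collagen mean was 9.37 ± 0.58 in labelled male control and 10.04 ± 0.73 in labelled female control, and it was the same to 2 decimals in both pesticide groups, above either control mean, with an SD of 0.39 in labelled males and 0.27 in labelled females. No test was made of this derived difference, since the genes were chosen with results known.

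**Figure D3:**
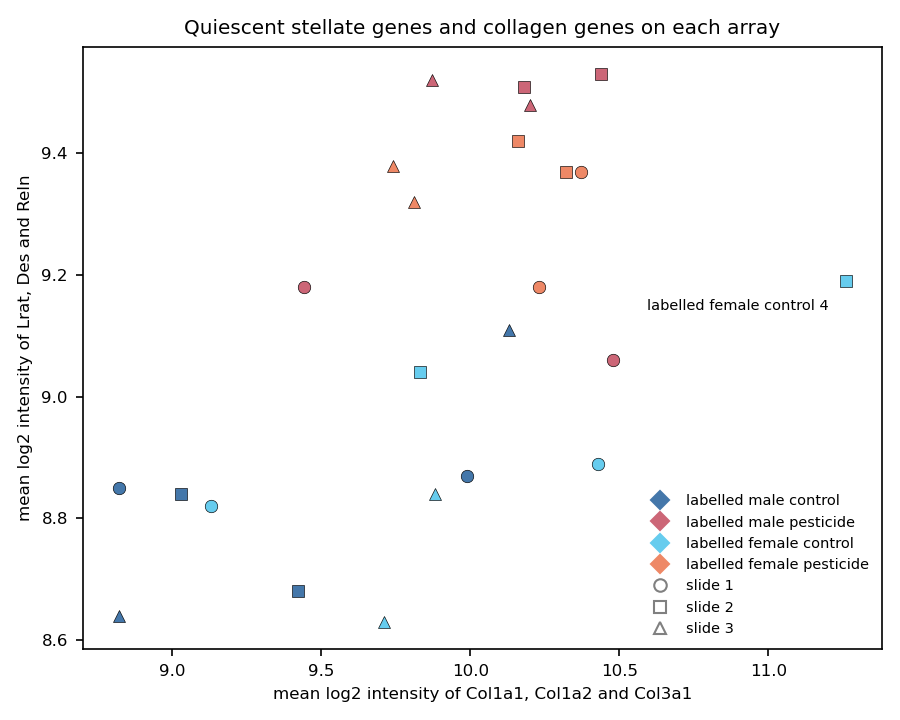
Mean log2 intensity of Lrat, Des and Reln (y axis) against that of Col1a1, Col1a2 and Col3a1 (x axis) on each of 24 arrays, coloured by labelled group, with the slide as the point shape. Labelled pesticide arrays lie higher on the y axis than most control arrays, while on the x axis the groups overlap and labelled female control 4 stands at 11.26.

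Array-to-array variation within the labelled groups tied the collagens closely to one another. After subtraction of the group means, the deviations of Col1a1 and Col3a1 had a Pearson r of 0.98 over 24 arrays, those of Col1a1 and Col1a2 0.97 and those of Col1a2 and Col3a1 0.96. Lrat, by contrast, had an r of 0.15, 0.19 and 0.22 with these 3 collagens, and 0.70 with Reln and 0.63 with Dcn. Reln went with Bgn (0.76) and Pdgfrb (0.75), and Pdgfrb with Col1a1 at 0.70. Reln stood between, at 0.54 to 0.57 with the collagens. Des had an r of 0.06 with Lrat and 0.63 with Bgn. These are descriptions: values of 1 array share its RNA sample, labelling, hybridisation and slide. Without labelled female control 4 the r of Col1a1 with Col3a1 was 0.98 and that of Lrat with Col3a1 0.07.

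**Figure D4:**
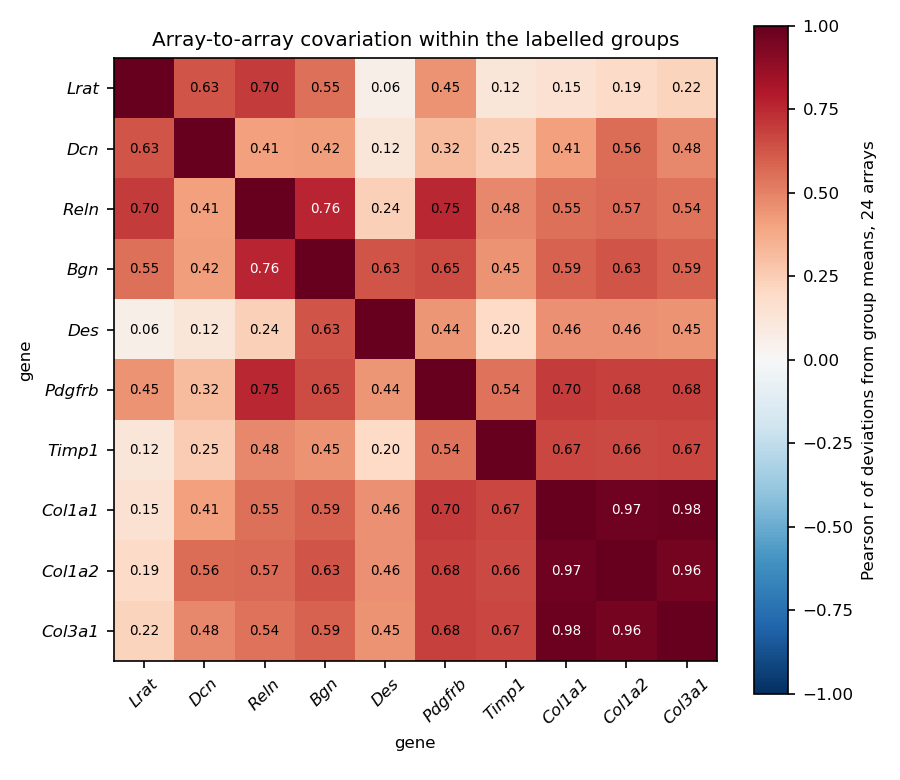
Pearson r between the deviations of each pair of genes from their labelled group means, over 24 arrays (rows and columns, genes; colour, r from -1 to 1). The 3 collagens form a block at 0.96 to 0.98, and Lrat shares 0.15 to 0.22 with them and 0.70 with Reln.

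Over all tested genes, the 5 whose deviations were most like those of Col3a1 were Col1a1, Col1a2, Pcolce (0.93), an enhancer of procollagen processing, Emp1 (0.92) and Col6a1 (0.92), a chain of type VI collagen. For Lrat they were Ntn1 (0.85), which encodes netrin 1, Tnfrsf21 (0.84), Gucy1a2 (0.80), Map2 (0.79) and Gucy1b1 (0.78); Gucy1a2 and Gucy1b1 encode subunits of the nitric oxide receptor. Those of Pdgfrb were Col16a1 (0.89), C1qtnf5 (0.84), Matn2 (0.84), Gm32191 (0.84) and Loxl1 (0.81), a lysyl oxidase relative that crosslinks elastin. In the order of likeness to Lrat over all tested genes, Reln ranked 33 and Col3a1 3694.

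The upstream sequence is shown for Lrat and Reln, which varied together, and for Col1a2 and Col3a1, which varied with each other and little with Lrat. Each is the 250 bases before the annotated start, from RefSeq on GRCm38.p6, where 7 of the 10 genes had a match. Capitals mark the CCAAT box, the TATAAA box and the GGGCGG box on either strand. The windows are chr3:82903975-82904224 (minus strand) for Lrat, chr5:22344706-22344955 (minus) for Reln, chr6:4505368-4505617 (plus) for Col1a2 and chr1:45311288-45311537 (plus) for Col3a1.
Lrat upstream: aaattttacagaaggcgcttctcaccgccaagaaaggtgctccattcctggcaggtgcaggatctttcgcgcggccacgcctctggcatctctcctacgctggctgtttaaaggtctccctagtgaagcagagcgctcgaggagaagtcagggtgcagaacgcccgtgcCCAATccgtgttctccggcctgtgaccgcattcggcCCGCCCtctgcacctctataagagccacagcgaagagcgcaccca
Reln upstream: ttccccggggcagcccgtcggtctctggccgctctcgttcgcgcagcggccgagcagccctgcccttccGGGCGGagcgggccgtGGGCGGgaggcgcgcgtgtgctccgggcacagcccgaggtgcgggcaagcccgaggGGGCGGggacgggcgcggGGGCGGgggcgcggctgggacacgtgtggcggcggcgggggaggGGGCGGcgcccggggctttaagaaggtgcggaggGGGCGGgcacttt
Col1a2 upstream: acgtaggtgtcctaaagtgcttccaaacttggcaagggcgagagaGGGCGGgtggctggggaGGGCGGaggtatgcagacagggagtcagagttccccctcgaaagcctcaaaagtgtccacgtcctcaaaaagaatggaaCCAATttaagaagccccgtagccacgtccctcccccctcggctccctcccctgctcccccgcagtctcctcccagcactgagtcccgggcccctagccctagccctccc
Col3a1 upstream: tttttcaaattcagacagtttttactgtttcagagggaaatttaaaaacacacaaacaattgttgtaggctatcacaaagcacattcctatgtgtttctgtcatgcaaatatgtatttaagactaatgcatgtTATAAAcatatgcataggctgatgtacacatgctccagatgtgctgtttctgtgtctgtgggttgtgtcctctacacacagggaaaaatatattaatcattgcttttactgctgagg
GGGCGG occurred 6 times before Reln, 2 times before Col1a2, 1 time before Lrat and 0 times before Col3a1, and 32.7% of all 32851 windows of this length hold it. CCAAT was present before Lrat and Col1a2 (33.8% of all windows), and TATAAA before Col3a1 alone of the 4 (12.4% of all windows). The motifs do not overlap one another in these windows, and they are letter matches only.

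The wider lists around these genes were counted in the same comparisons, and they include the 10 genes where these belong. They too were chosen with earlier results known, so their counts are descriptions and no test of an excess. Of all genes, 14.3% were called higher and 11% lower in labelled males, and 10.6% and 10.2% in labelled females. Of 21 tested quiescent stellate genes, 17 rose and 0 fell in labelled males (median log2 difference 0.67) and 11 rose and 0 fell in labelled females (0.51), against a median of -0.02 and -0.01 over all genes. Ecm1, an inhibitor of latent transforming growth factor beta activation, rose by 0.78 in the mean of both labelled sexes (SE 0.06, adjusted p = 1.3e-09). Pth1r, a parathyroid hormone receptor, rose by 0.78, the lectin gene Colec11 by 0.86 and Angptl6 by 0.65 (adjusted p = 1.3e-07 or lower for each). Hgf, Hand2, Bambi and Adamtsl2 (0.12 to 0.22), chosen after their values were seen, were the 4 that did not pass in that mean. Gfap, the 1 gene of this list that was not tested, was well above background on 2 of 24 arrays. Without labelled female control 4 the labelled female count was 15 of 21, and without labelled female pesticide 3 it was 10. In these 2 fits 12.6% and 9.49% of all genes were called higher in labelled females.

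Of 19 tested genes of activated stellate cells and myofibroblasts, 10 rose in labelled males (median difference 0.45) and 4 in labelled females (0.25), with 0 lower, and 11 in the mean. The share of all genes called higher was 14.3% in labelled males, 10.6% in labelled females and 20.4% in the mean. Mgp, matrix Gla protein, rose by 1.22 (SE 0.11, adjusted p = 1.5e-08), Tgfbi by 0.83, the matricellular gene Postn by 0.86 and Igfbp3 by 0.62 in the mean of both. Acta2, the smooth muscle actin by which myofibroblasts are recognised, differed by 0.01 in labelled males and -0.16 in labelled females and passed in neither (adjusted p = 0.98 and 0.50). Of 15 tested collagens, 6 rose and 1 fell in labelled males (median 0.50) and 4 rose and 2 fell in labelled females (0.17). The counts lower are near or below the 11% and 10.2% of all genes called lower in labelled males and females. Col5a1 (0.49), Col16a1 (0.48) and Col14a1 (0.51) rose in the mean, whereas Col5a3 fell by 2.21 (SE 0.18, adjusted p = 7.6e-10). Without labelled female pesticide 3, 2 collagens rose in labelled females, against 9.49% of all genes. Without labelled female control 4 the labelled female median was 0.29.

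A list of small proteoglycan genes, which also holds the matrix protein gene Dpt, had 10 tested genes. Of these 5 rose and 1 fell in labelled males (median 0.33), and 2 rose and 1 fell in labelled females (0.23). The shares of all genes called higher were 14.3% and 10.6%. The 1 lower is no more than the 11% and 10.2% of all genes called lower in labelled males and females. Prelp rose by 0.70 and Dpt by 0.54 in the mean. Omd, which encodes osteomodulin, fell in the mean of both (adjusted p = 2.9e-15), from 8.78 to 9.53 in labelled male control to 5.50 to 5.99 in labelled male pesticide. It was well above background on 3 of 6 arrays in each labelled pesticide group, so its fitted difference of -3.36 is set against values near background. Of 17 genes of collagen processing and crosslinking, 9 rose in labelled males (median 0.45) and 4 in labelled females (0.16). Those that rose in the mean include Crtap (0.80), Pcolce2 (0.81) and Bmp1 (0.27). Loxl4 also rose (1.18), but was well above background on 3 of 6 arrays in each labelled control group. The labelled female median of this list was 0.28 without labelled female control 4. Of 13 genes of matrix turnover 3 rose and 1 fell in each labelled sex (medians 0.14 and -0.04, the latter 0.04 without labelled female control 4). Those 3 and 1 of 13 stand beside 14.3% of all genes higher and 11% lower in labelled males, and the 1 lower is no more than that share. In the mean Timp3 rose by 0.63 (SE 0.06, adjusted p = 1.7e-08), Mmp14 by 0.51 and Mmp19 by 0.47, and Mmp15 fell by 0.57.

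Of 25 genes of transforming growth factor beta and platelet-derived growth factor signalling, 10 rose and 1 fell in labelled males (median 0.38) and 5 rose and 2 fell in labelled females (0.26). The counts lower are below the 11% and 10.2% of all genes called lower in labelled males and females. Tgfbr3, a co-receptor, rose by 0.64, the repressors Ski and Smad6 by 0.49 and 0.77, and the ligand gene Pdgfa fell by 0.73 (SE 0.09, adjusted p = 6e-07), all in the mean of both. Without labelled female control 4, 8 of these genes rose in labelled females, against 12.6% of all genes (10.6% with all arrays). Of 13 retinoid handling genes, 6 rose and 1 fell in labelled males (median 0.25) and 2 rose and 1 fell in labelled females (0.14, or 0.25 without labelled female pesticide 3). The counts in labelled females are near the 10.6% of all genes higher and 10.2% lower, and the 1 lower in labelled males is near 11%. In the mean, Rdh5 rose by 0.53 and Rarb by 0.51 beside Lrat, and Aldh1a1, which oxidises retinaldehyde, fell by 0.73. These are the genes of smallest p and not the largest differences. Whether called or not, differences in this list ran from -0.64 to 2.43 in labelled males and from -0.82 to 0.66 in labelled females. In the mean they ran from -0.73 to 1.55.

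Markers of some other liver cells also moved with the pesticide label, and their part in the values above was not tested. In labelled males and females respectively, 9 and 10 of 12 sinusoidal endothelial markers rose, as did 11 and 11 of 12 Kupffer cell and macrophage markers, 5 and 0 of 9 lymphocyte markers, and 4 and 0 of 11 portal fibroblast and mesothelial markers. Bile duct markers rose in 1 and 0 of 7 and hepatocyte markers in 0 and 2 of 9, near or below the 14.3% and 10.6% of all genes except for the 2 hepatocyte genes in labelled females (1 without either labelled female control 4 or labelled female pesticide 3). The mean log2 level of the endothelial list was 9.83 to 10.38 over labelled control arrays and 10.37 to 10.93 over labelled pesticide arrays, and that of the Kupffer cell list 9.64 to 11.89 and 10.76 to 12.37. The hepatocyte list was at 16.93 to 17.27 and 16.96 to 17.21. Examples in the mean of both are Stab2 (0.63), Gpr182 (0.75), Clec4g (0.60) and Fcgr2b (0.64) of endothelium, Vsig4 (1.76), Clec4f (1.33), Folr2 (1.47) and C1qa (1.40) of macrophages, and Cd79b (1.33), Ms4a1 (0.99) and Gzma (1.21) of lymphocytes. Ms4a1 was well above background on 4 and 3 of 6 arrays in labelled male and female control. Cd34 (0.61), Pi16 (0.35) and Thy1 (0.78) rose and Entpd2 fell by 0.28 among portal fibroblast genes. Without labelled female control 4, 4 of 9 lymphocyte markers and 3 of 11 portal fibroblast markers rose in labelled females, against 12.6% of all genes.

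**Figure D5:**
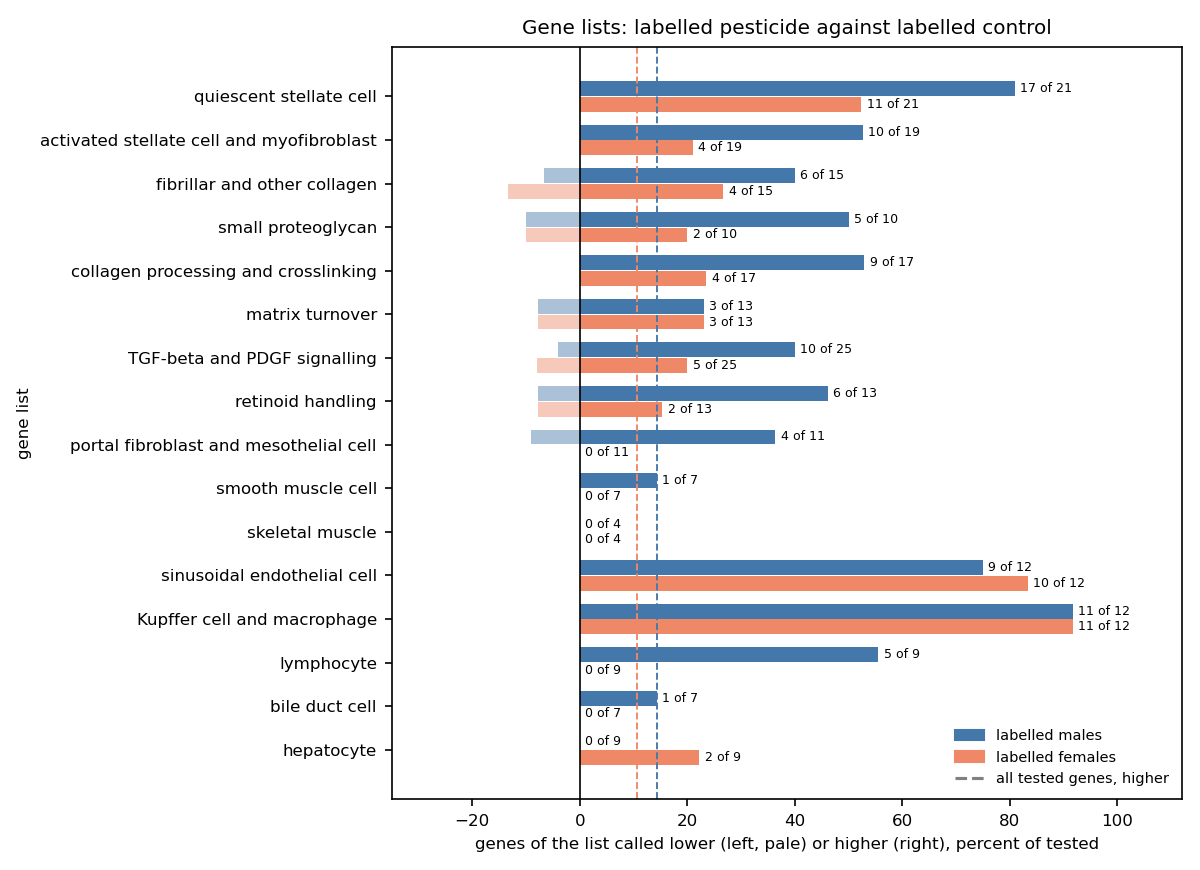
Share of the tested genes of each list (y axis) called higher (right of 0) or lower (left of 0, pale) at an adjusted p under 0.05, in percent (x axis), for labelled pesticide against labelled control in labelled males and labelled females, with the number called higher written beside each bar. The dashed lines mark 14.3% and 10.6%, the shares of all tested genes called higher; quiescent stellate, endothelial and Kupffer cell lists lie far to the right of them in both labelled sexes.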

How the data were processed

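Liver RNA of 24 samples was measured on 1-colour arrays. Per the file headers, each scanner file gives the fluorescence intensity of every spot and of its surroundings, made with Agilent Feature Extraction 10.10.1.1. A table of log2 values deposited by the authors, which per the series' design text came from filtered and quantile normalized median signals, served as an alternative.

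The median signal was taken on the log2 scale without background subtraction. Outlier spots were set to missing, repeated spots were averaged, and 56605 probes were quantile normalized. The 32078 probes marked well above background on at least 4 of 6 arrays of 1 group were tested, and the tested probe with the highest mean over all arrays stood for its gene. Limma 3.58.1 in R 4.3.3 fitted 1 mean per group to all 24 arrays without a block. Tests were two-sided, with Benjamini-Hochberg adjusted p under 0.05. The fit was tested on simulated data. Arrays give no counts, and their number limits the precision.

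The members and gene lists were chosen with earlier results of these data known. Named were all 10 members, up to 4 genes of smallest p per list, the 5 genes most like Col3a1, Lrat and Pdgfrb over the 24 arrays, and the 5 quiescent genes that did not pass or were not tested, chosen after their values were seen. Alternatives were normexp with offset 50, scaling to the 75th percentile, other filters, slide and replicate blocks, single slides, only the arrays compared, trend and robust settings, the value table, and leaving out each array. List counts without 2 single arrays were added after the data were seen.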

Additional observations from a re-analysis of the deposited data

Results flagged for a closer look

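Each gene's brightest probe, and the difference between quiescent and collagen genes, was examined for an array far from the others of its labelled group. Of 44 such groups of 6 arrays, 0 had a gap to the nearest array above 0.625 of the group's range, where chance gives about 1 in 20. No test of a difference between the labelled sexes passed for any of the 10 genes.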

How the results depend on the processing

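With 4 arrays per labelled sex, or 8 for the mean of both, the single slides gave fewer calls: on slides 1, 2 and 3 there were 1052, 583 and 459 probes in labelled males, 1041, 319 and 346 in labelled females and 3499, 1525 and 1792 in the mean of both, against 7131, 5878 and 11593 with all arrays. Of the 10 members 0, 0 and 0 were then called higher in labelled males, 1, 0 and 0 in labelled females and 3, 1 and 2 in the mean. Whether called or not, 9 of 10 lay higher on every slide in labelled males, 5 in labelled females and 9 in the mean. The share of all genes that lay higher on every slide was not computed, so these counts cannot be read as an excess. Leaving out 1 array at a time gave 5 to 8 members in labelled males (5 without labelled male control 6, where Des, Col1a2 and Col3a1 were lost), 2 to 4 in labelled females and 6 to 8 in the mean. It gave 0 to 1 probes between the labelled control groups and 0 to 1 between the labelled pesticide groups, where slide 1 alone gave 2. Dimmer probes turned the direction of a called gene without passing: in labelled males Des (-0.15) and Reln (-0.03), and in the mean Des (0.00), Reln (-0.01) and Col1a2 (-0.04). The cause was not tested. With the replicate block, 8, 4 and 8 members were called higher (8099, 6751 and 12652 probes); 2 to 4 of 6 pairs per number had deviations correlated over 0.1, short of all pairs, so the numbers were not taken to pair the samples. As a hint from the data, not the design, 14 of 24 arrays correlated best with their own number, and each slide holds 2 whole numbers. Scaling of the median signal to the 75th percentile left 8, 3 and 6 members and moved the share of higher among called genes from 56.6% to 42.6% in labelled males, from 50.9% to 44.0% in labelled females and from 51.7% to 41.7% in the mean. Col1a2 lost its call in the mean under 5 alternatives other than single slides, left-out arrays and dimmer probes, and Col3a1 under 3. Both also lost it with their dimmer probes. Across all fold changes of members and alternatives, 2126 kept their side of the threshold, 124 were lost, 5 were gained and 5 reversed. These counts pool all comparisons, also those between the labelled sexes, where no member was called and no call could be lost. They do not measure how stable the calls were.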
